A study of Mus musculus with 54 samples.

Results

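The mitosis and spindle checkpoint genes are 42 listed genes whose products carry a cell from entry into mitosis to the separation of the daughter cells. A gene was a member if its symbol was on the list and the platform annotation gave it a probe set of its own, and 40 of the 42 were found among 14104 genes measured in the series. Of these, 14 had 1 probe set and 26 had 2 or more, and the probe set with the highest mean over all arrays stood for the gene. The cyclin B gene Ccnb1 had no probe set annotated to it alone, and Sgol1 is listed by the annotation under its current symbol Sgo1, which was followed beside the members and not counted with them. The cells were mouse embryonic stem cells (ESCs) of the CGR8 line and the embryoid bodies (EBs) they form in hanging drops, aggregates in which cells differentiate without a set direction. The KD line carried a short hairpin RNA against Mageb16, the SCR line a scrambled hairpin and the WT line no construct. KD and SCR were each 1 stable polyclonal population kept after puromycin selection, so an effect of the hairpin and one of that particular population cannot be told apart. Each line was sampled undifferentiated (day 0) and as EBs on days 2, 4, 12, 15 and again 22, on 3 arrays a group, 54 arrays in 18 groups, and the labels do not say that the 3 were separate cultures, so the p values measure the spread between these arrays. In KD cells Mageb16 lay below SCR on every day, by a log2 difference of -3.01 at day 0, -5.75 at day 4 and, among late EBs, -2.43 on day 22. Against WT the differences on these days were -2.90, -3.28 and -2.24. The control lines themselves differed in Mageb16, with SCR above WT by 1.19 on day 2 and 2.47 on day 4.

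Mitosis is driven by cyclin-dependent kinase 1 with its cyclins and by the Polo and Aurora kinases. Chromosomes are compacted by condensins and topoisomerase II and are held by the spindle at kinetochores, the protein plates built on centromeres. The spindle checkpoint keeps the anaphase-promoting complex from acting until every kinetochore is attached, after which separase cuts the cohesin that holds sister chromatids together and the cell divides. Many of the genes are transcribed as 1 programme late in the cell cycle, through a promoter element called the CHR (cell cycle genes homology region), bound by the MuvB complex, and through CCAAT boxes, bound by NF-Y. Embryonic stem cells cycle fast, and many of their differentiated descendants cycle slowly or not at all.

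The promoters of the members were read first, because the genes share this regulation and the list was not made from sequence. RefSeq promoters of mouse build GRCm38.p6, from 250 bases before to 50 after the start, were at hand for 33 of the 40. A gene counted if any of its listed starts had the motif. A CHR (TTTGAA or TTCGAA, on either strand) stood in 26 of them (78.8%). It stood in 21.7% of the 27025 genes of the promoter table and in 16.7% of the 11299 of these measured on the arrays. A CCAAT box on either strand stood in 25 (75.8%), against 41.1% of the table and 42.9% of the measured genes. Both motifs stood in 23 members (69.7%), against 8.61% of the table and 6.81% of the measured genes. No CHR by these letters was found in this window in Mad2l1, Nek2, Cenpe, Nuf2, Birc5, Pttg1 and Ncaph. A match of letters is a description of the sequence and does not show that a factor binds there.

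The following 130-base stretches run from 110 bases before to 20 after the start, with CHR and CCAAT matches in capitals (ATTGG and TTCAAA are matches on the other strand). They show the genes with large changes in late KD EBs (Bub1, Espl1, Ncapg), 2 textbook mitotic genes (Ccnb2, Cdc20) and the member that hardly moved (Bub3). Bub1 lies at chr2:127831840-127831969 on the minus strand, Espl1 at chr15:102296183-102296312 on the plus strand and Ncapg at chr5:45669815-45669944 on the plus strand. Ccnb2 lies at chr9:70421535-70421664 on the minus strand, Cdc20 at chr4:118437324-118437453 on the minus strand and Bub3 at chr7:131560260-131560389 on the plus strand.
Bub1: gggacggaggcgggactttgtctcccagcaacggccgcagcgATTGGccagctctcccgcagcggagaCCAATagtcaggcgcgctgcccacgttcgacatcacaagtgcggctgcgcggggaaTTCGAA
Espl1: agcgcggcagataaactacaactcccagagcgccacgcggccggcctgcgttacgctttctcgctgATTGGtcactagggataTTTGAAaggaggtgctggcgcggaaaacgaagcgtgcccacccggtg
Ncapg: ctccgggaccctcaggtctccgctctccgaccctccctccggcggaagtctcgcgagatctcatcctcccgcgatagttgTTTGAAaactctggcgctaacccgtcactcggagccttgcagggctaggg
Ccnb2: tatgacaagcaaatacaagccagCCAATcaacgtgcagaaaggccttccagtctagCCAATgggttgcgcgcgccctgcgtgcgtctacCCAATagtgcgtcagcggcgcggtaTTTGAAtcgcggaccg
Cdc20: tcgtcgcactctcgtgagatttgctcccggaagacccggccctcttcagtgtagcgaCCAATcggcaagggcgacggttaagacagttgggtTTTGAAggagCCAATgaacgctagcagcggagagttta
Bub3: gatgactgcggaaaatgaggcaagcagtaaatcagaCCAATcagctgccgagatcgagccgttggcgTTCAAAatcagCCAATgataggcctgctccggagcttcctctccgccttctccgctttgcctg
Bub3 carried 1 CHR and 2 CCAAT boxes in this stretch, and Ncapg 1 CHR and no CCAAT box, so the motifs were present both in members with large changes and in one without.

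Averaged over the 40 members, KD EBs separated from both other lines between day 4 and day 12. Values are log2 expression values as deposited. In the order of the 6 days, the mean over the members in KD was 9.93, 10.05, 9.99, 9.25, 9.03 and 8.82. In SCR the same mean was 9.78, 10.06, 9.97, 9.86, 9.81 and 9.59, and in WT it was 9.77, 10.01, 9.97, 9.68, 9.89 and 9.78. On day 22 the 3 KD arrays lay between 8.75 and 8.85, the SCR arrays between 9.46 and 9.71 and the WT arrays between 9.76 and 9.82. The KD arrays therefore lay below every SCR and WT array on days 12, 15 and 22. The mean over all 14104 genes was 7.12 to 7.13 on the KD arrays of day 22, against 6.72 to 6.74 on those of day 0. No member lay under the lower quartile of its array on any array, and the lowest member value was 6.65, so all 40 were measured well within the range of the arrays.

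**Figure D1:**
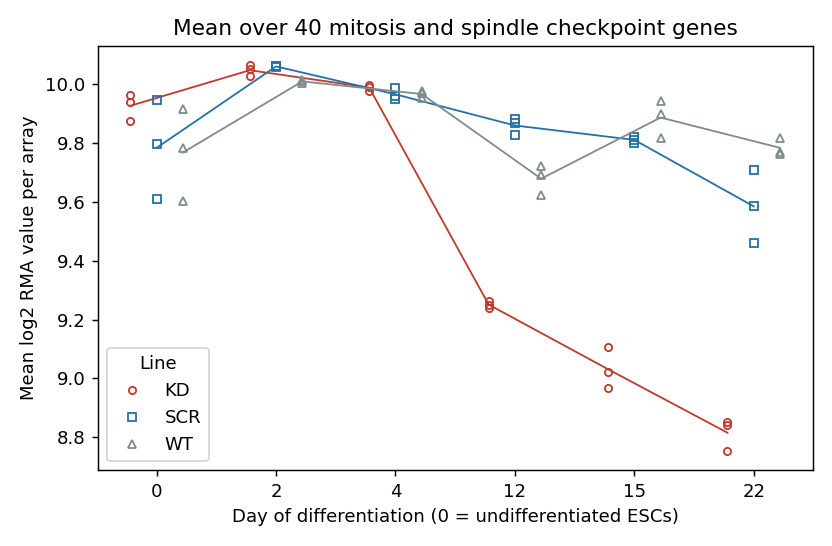
Mean log2 RMA value over the 40 members (y axis) on each array, by day of differentiation (x axis, days not to scale), for KD (circles), SCR (squares) and WT (triangles). Points are single arrays, 3 a group, and lines join the group means. The KD arrays of days 12 to 22 lie between 8.75 and 9.26, below every SCR and WT array of the same days.

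In late EBs (the mean of days 12, 15 and 22) 39 of the 40 members lay lower in KD than in SCR at a limma adjusted p under 0.05, with a median log2 change of -0.70. The exception was Bub3. Of all 14104 genes, 39% were lower by the same criterion and the median change was -0.02. The counts by role given below against SCR stand beside this same 39%. With the 2-fold minimum of the study's methods added, 6 members fell in KD against SCR (Bub1, Ncapg, Ttk, Ect2, Espl1 and Bub1b) and none rose, where 4.88% of all genes fell. By day, 3 members fell at day 12 (5.47% of all genes), 10 at day 15 (6.16%) and 8 at day 22 (4.61%). By adjusted p alone 38 were lower on each of these days, where the share of all genes was 28.1%, 31.3% and 34%, and the median changes were -0.63, -0.80 and -0.78. Most members thus lay between no change and the 2-fold line, which sets the counts. The count of 8 at day 22 also rests on single arrays. It was 4 without SCR replicate 1 of that day, 13 without SCR replicate 2 and 4 with array weights.

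Against WT, whose comparison uses the same KD arrays, 39 members again lay lower in late KD EBs by adjusted p (38% of all genes), with a median of -0.72. Past the 2-fold minimum 9 fell (6.21% of all genes), namely Espl1, Bub1b, Bub1, Ttk, Anln, Nek2, Ncapg, Kif2c and Ndc80. Only Espl1 fell at day 12 (5.35% of all genes), where 29 members were lower by adjusted p (27.1%) and Bub3 was higher by 0.17. At day 15, 12 fell (8.75%), and at day 22, 18 fell (7.11%), with 39 lower by adjusted p on both days (32.6% and 34.5%) and medians of -0.81 and -0.96, against -0.37 at day 12. Of the 9, Ndc80 lay on the line at -1.01. It was at -0.98 without KD day 22 replicate 2, and also short of 2-fold without any 1 of KD day 12 replicate 2, KD day 15 replicate 3, WT day 12 replicate 1 and WT day 22 replicate 3.

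Between SCR and WT the members had no one direction over the days. In late EBs no member passed the 2-fold test between SCR and WT, where 5.91% of all genes did in either direction. Without the minimum 10 members were lower and 7 higher in SCR (58.7% of all genes in either direction), and by unadjusted limma p under 0.05 the counts were 12 and 10 (34.8% and 28.6% of all genes). The median change was -0.02, over days that differed in sign. The count past the 2-fold test was 0 on every single day as well, where the share of all genes in day order was 0.9%, 2.6%, 10.7%, 4.42%, 7.76% and 9.23%. In the same order the members lower in SCR at an unadjusted p under 0.05 were 4, 2, 11, 1, 12 and 21, where the shares of all genes were 16.3%, 20.3%, 29%, 21.3%, 29.6% and 26.8%. The members higher in SCR were 5, 7, 8, 21, 3 and 0, where the shares were 9.71%, 14.7%, 25.2%, 16.9%, 23.9% and 23.9%. At day 12 SCR lay above WT, with a median of 0.20 and 15 members higher by adjusted p (11.8% of all genes). At day 22 it lay under WT, with a median of -0.20 and 19 members lower by adjusted p (22.4% of all genes).

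**Figure D2:**
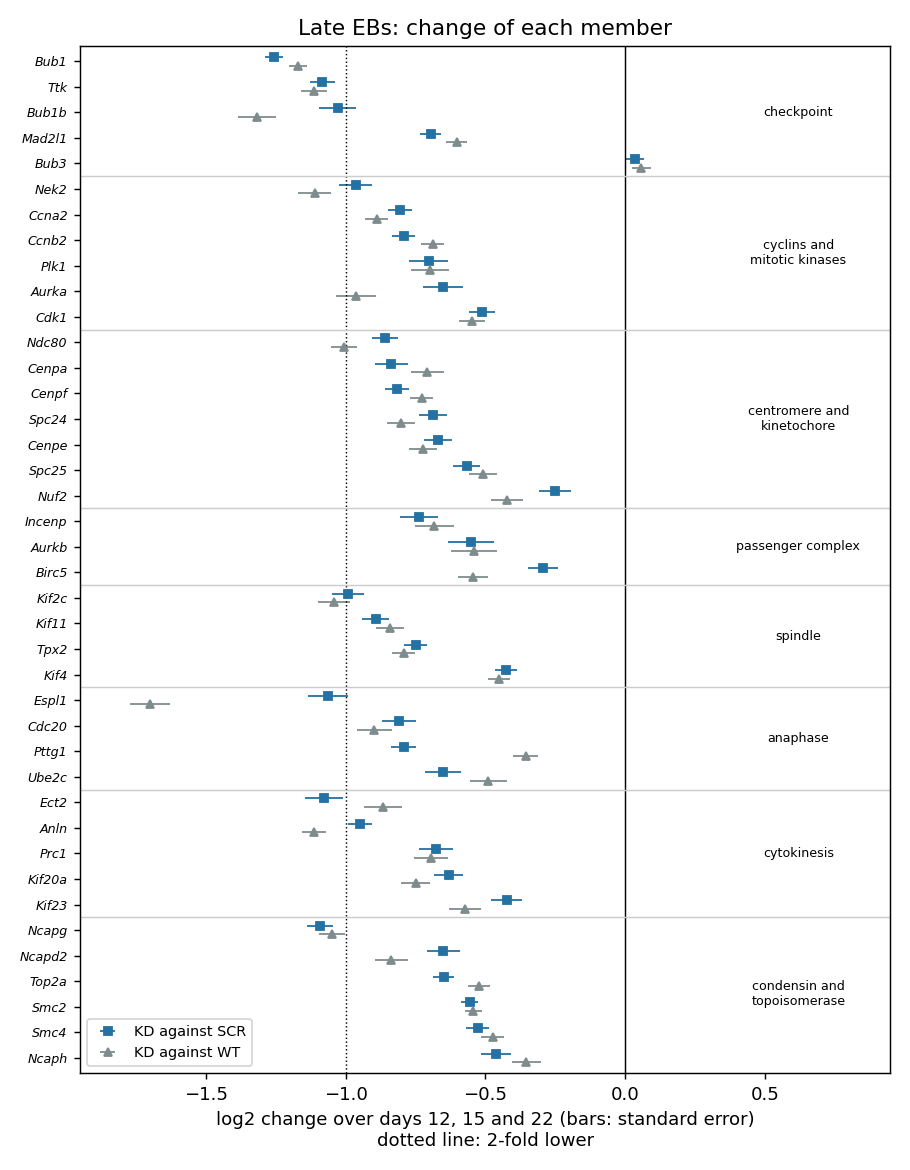
The log2 change of each of the 40 members (rows, grouped by role) in late KD EBs, against SCR (squares) and against WT (triangles), over days 12, 15 and 22. Bars are moderated standard errors and the dotted line marks a 2-fold lower level. All members except Bub3 lie left of 0 in both comparisons, from -1.26 (Bub1) to -0.25 (Nuf2) against SCR and from -1.70 (Espl1) to -0.35 (Ncaph) against WT.

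Before day 12 the members as a group were not lower in KD, and in undifferentiated cells most lay slightly higher. KD against SCR gave no member past the 2-fold test at day 0 (1.21% of all genes), day 2 (4.75%) or day 4 (11.8%). At day 0 only 7 of the 40 were below SCR and the median was 0.17, and 10 were higher by adjusted p (9.93% of all genes). At an unadjusted limma p under 0.05, 2 members were lower (13% of all genes) and 19 higher (16%) at day 0. These counts were 3 (18.6%) and 5 (21.7%) on day 2 and 9 (26.3%) and 12 (29.1%) on day 4, with medians of 0.01 and 0.00. KD against WT gave 1 member at day 0 (1.52% of all genes), Pttg1, which was higher, and none at day 2 (0.964%) or day 4 (0.404%). At day 0 only 5 of the 40 were below WT and the median was 0.15, and 11 were higher by adjusted p (7.13% of all genes). At an unadjusted p under 0.05, 4 members were lower (16.6% of all genes) and 18 higher (13.1%) at day 0. The counts were 2 (12.4%) and 5 (8.06%) on day 2 and 3 (7.28%) and 1 (4.96%) on day 4. The day 0 arrays of SCR and WT spread widely in these genes. Their replicate 1 had means over the members of 9.61 and 9.60, against 9.95 and 9.92 for replicate 2, while the KD arrays lay between 9.88 and 9.97. The change from day 0 to late EBs was also compared between the lines in 1 test, which the higher day 0 level of KD enters. It was more negative in KD than in SCR for 38 members by adjusted p (30.3% of all genes), 15 of them past 2-fold (6.89%), with a median of -0.89. It was more negative in KD than in WT for 38 as well (28.9%), 16 of them past 2-fold (6.49%), with a median of -0.95. Without replicate 1 of every group the count of 15 was 9.

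**Figure D3:**
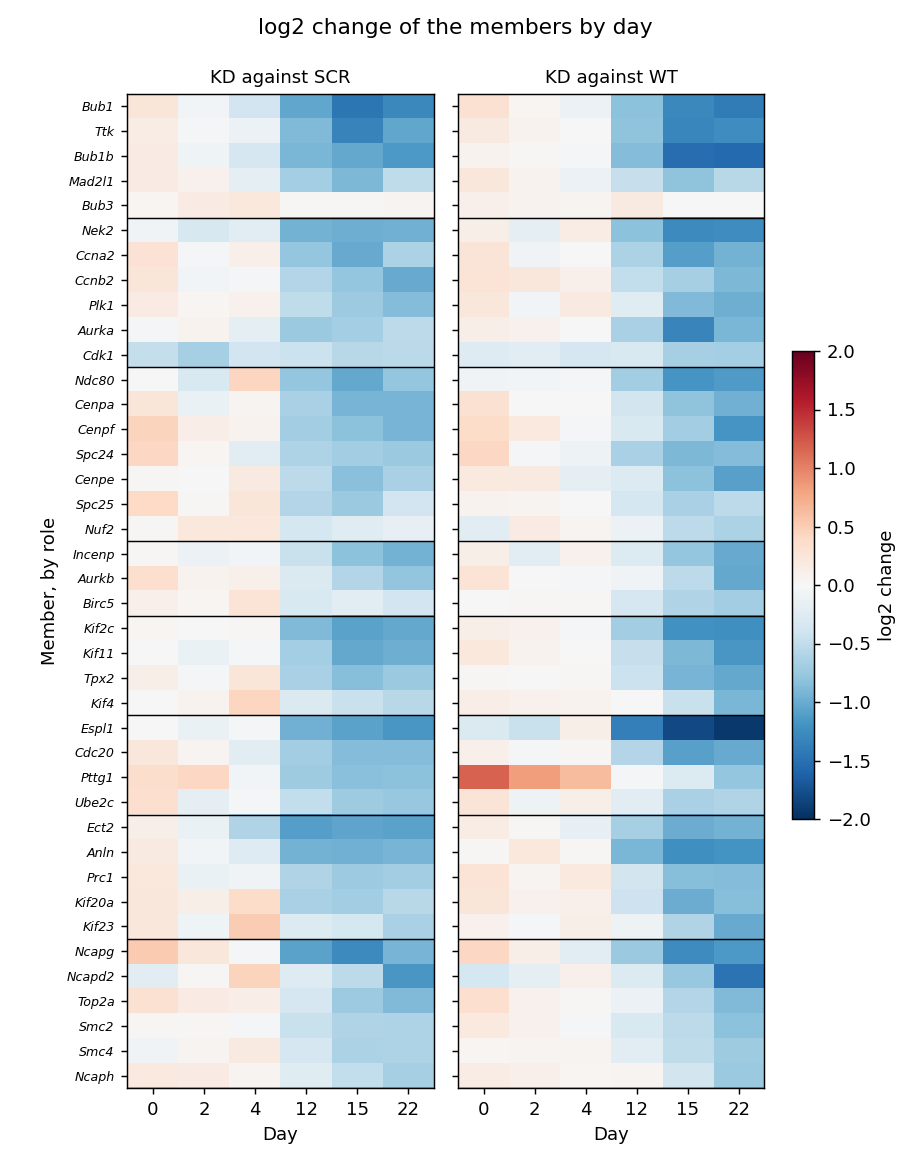
The log2 change of the 40 members (rows, by role, black lines between roles) on each day (columns), KD against SCR on the left and KD against WT on the right. Blue is lower and red is higher in KD. Both panels are mostly pale on days 0 to 4, with Cdk1 (blue, -0.48 at day 0 against SCR) and Pttg1 (red, 1.18 at day 0 against WT) among the exceptions, and mostly blue on days 12 to 22, with Bub3 pale.

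The spindle checkpoint genes had the lowest median of the 8 roles, -1.03 against SCR and -1.11 against WT in late EBs. In each comparison 3 of the 5 fell (4.88% and 6.21% of all genes). Bub1 encodes a kinase that sits at unattached kinetochores and recruits the other checkpoint proteins. On the KD arrays it read 10.39, 10.39 and 10.36 at day 12, 10.10, 10.10 and 10.14 at day 15, and 10.16, 10.31 and 10.10 at day 22. On the SCR arrays it read 11.46, 11.43 and 11.38, then 11.53, 11.56 and 11.57, then 11.59, 11.33 and 11.50. The WT arrays lay between 11.17 and 11.62. No KD array overlapped either line, and the late change was -1.26 against SCR (SE 0.0332, adjusted p = 3.37e-30) and -1.17 against WT. Bub1 was 11.24 to 11.27 in undifferentiated KD cells, 10.95 to 11.12 in SCR and 10.86 to 11.06 in WT, so that KD began above both lines. Its change at day 22 against day 0 was -1.07 in KD, 0.46 in SCR and 0.64 in WT. With the mean of its 2 probe sets in place of the brighter one, the late change of Bub1 was -0.84 against SCR and -0.80 against WT, under the 2-fold minimum. The dimmer probe set had a mean level of 4.89 over all arrays and was at -0.43 against SCR.

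Of the other checkpoint genes in late EBs, Ttk and Bub1b fell and Mad2l1 was lower. For the mean of days 12, 15 and 22 Bub3 passed no test between KD and either line. On day 12 alone Bub3 was higher in KD than in WT by adjusted p, with a change of 0.17. Ttk, the MPS1 kinase that starts checkpoint signalling, ranged from 8.51 to 8.99 on the 9 late KD arrays (median 8.60), from 9.52 to 9.90 in SCR (median 9.82) and from 9.74 to 9.88 in WT (median 9.78). Its late change was -1.08 against SCR (SE 0.0455, adjusted p = 1.54e-23) and -1.11 against WT. With the mean of its probe sets Ttk was at -0.91 against SCR, short of 2-fold, and at -1.03 against WT. Bub1b encodes BUBR1, part of the complex that inhibits the anaphase-promoting complex. It ranged from 7.59 to 8.32 in late KD, from 8.59 to 9.22 in SCR and from 9.05 to 9.66 in WT, with changes of -1.03 (SE 0.0671) and -1.32. Bub1b lay near the 2-fold line against SCR. Its change was -0.99 without SCR day 22 replicate 1 and likewise without KD day 15 replicate 1, -0.93 without replicate 1 of every group and -0.97 with the mean of its probe sets, so all 3 checkpoint genes that fell against SCR lost that call under the last setting. Mad2l1 encodes MAD2, which locks Cdc20 in that complex. It lay at 10.29 to 10.57 in late KD, 10.89 to 11.30 in SCR and 10.88 to 11.13 in WT. The arrays did not overlap, though the change of -0.70 against SCR (adjusted p = 8.09e-20) did not reach 2-fold. Bub3, a partner of both BUB1 and BUBR1, read 10.95, 10.82 and 10.96 in KD at day 22, 10.78, 10.90 and 10.87 in SCR, and 10.86, 10.92 and 10.91 in WT. These day 22 values overlapped, and the late difference was 0.03 against SCR (95% interval -0.04 to 0.10) and 0.06 against WT (-0.01 to 0.13). With the mean of its probe sets Bub3 lay lower, by a log2 difference of -0.21 against SCR (adjusted p = 0.000268) and -0.22 against WT (adjusted p = 9.82e-05).

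**Figure D4:**
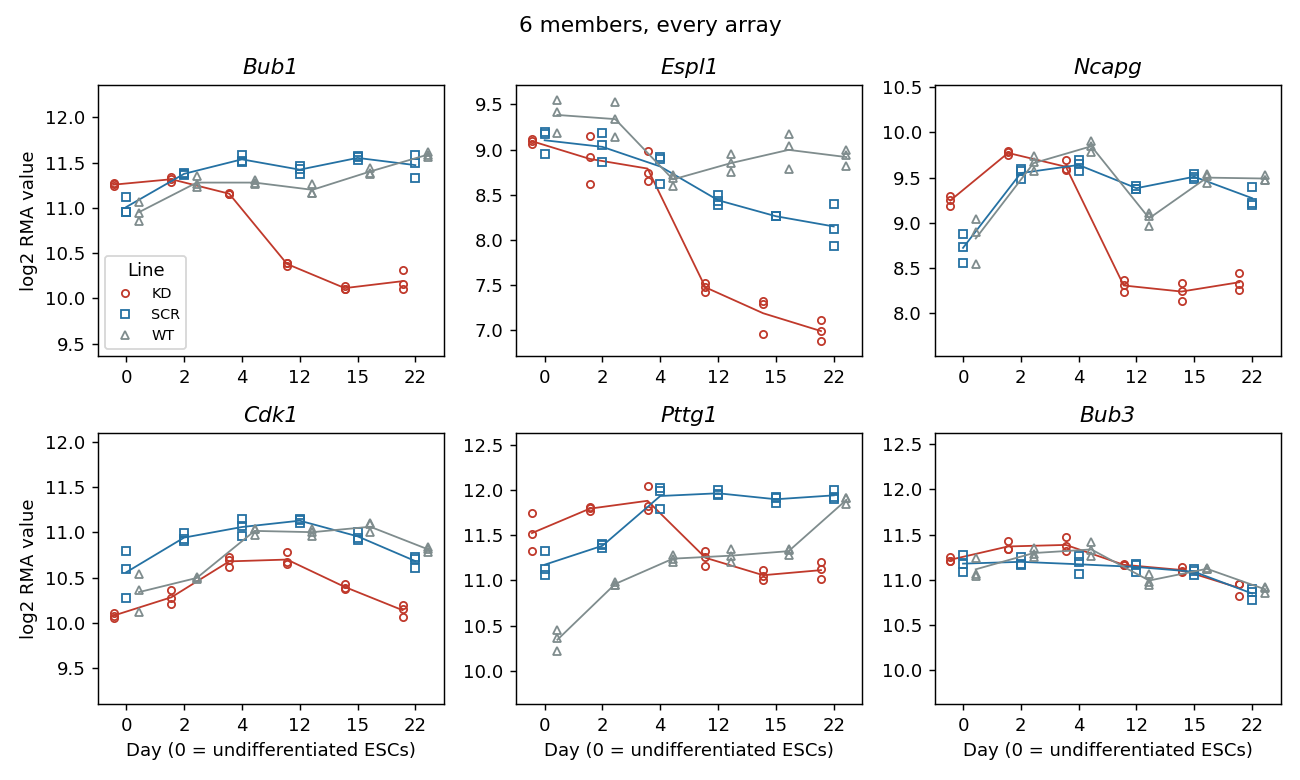
Log2 RMA values (y axis, each panel spans 3 units) of 6 members on every array by day (x axis), for KD (circles), SCR (squares) and WT (triangles), with lines through the group means. Bub1, Espl1 and Ncapg part from SCR and WT at day 12. Cdk1 lies under SCR in KD from day 0, Pttg1 begins higher in KD and Bub3 stays close between the lines.

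Among cyclins and mitotic kinases 6 of 6 measured members were lower in late KD EBs than in SCR by adjusted p, with a median of -0.75, and none fell past 2-fold. Nek2, a kinase that parts the centrosomes, came nearest at -0.96, and it fell against WT (-1.11). It also showed the largest fall of any member within KD, -2.25 at day 22 against day 0, and it fell in SCR too (-1.36), while its change was -0.90 in WT. Its 3 arrays were 7.40, 7.55 and 7.52 in KD at day 22, and 8.69, 8.13 and 8.55 in SCR, against 9.72, 9.77 and 9.73 in KD at day 0. Nek2 thus was lower in day 22 EBs of every line than at day 0, and lowest in KD. Aurka, the Aurora kinase of spindle poles, behaved alike. It was 7.54 to 8.22 in late KD (median 7.81), 7.88 to 8.94 in SCR (median 8.52) and 8.41 to 9.32 in WT (median 8.79). KD and SCR overlapped over the 9 arrays, with a change of -0.65 (adjusted p = 1.58e-10), and Aurka fell by 1.36 on the log2 scale in SCR itself by day 22. Plk1, the Polo kinase of mitotic entry, lay at 7.06 to 7.90 in late KD, 7.89 to 8.40 in SCR and 8.06 to 8.42 in WT, with changes of -0.70 against both lines. The cyclins Ccna2 and Ccnb2, which activate CDK1, were at -0.81 and -0.79 against SCR, and Ccnb2 passed 2-fold at day 22 (-1.01) and Ccna2 at day 15 (-1.01).

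Cdk1, the kinase that drives entry into mitosis, followed another course. At day 0 it read 10.08, 10.05 and 10.11 in KD, 10.28, 10.80 and 10.60 in SCR, and 10.12, 10.54 and 10.36 in WT. Undifferentiated KD cells thus already lay under both lines, with a difference of -0.48 against SCR (SE 0.0805, adjusted p = 2.48e-05) and -0.26 against WT (adjusted p = 0.0229). On the 5 EB days the differences against SCR were -0.66, -0.38, -0.43, -0.56 and -0.54, each short of 2-fold. In KD Cdk1 was higher than at day 0 by 0.60 at day 4 and 0.62 at day 12, and at day 22 it differed by 0.06 (adjusted p = 0.498), so its level in late KD EBs was not under that of undifferentiated KD cells. Cdk1 ranged from 10.07 to 10.78 in late KD, from 10.61 to 11.15 in SCR and from 10.78 to 11.10 in WT.

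All 7 centromere and kinetochore genes were lower in late KD EBs than in SCR by adjusted p, with a median of -0.69, and none fell past 2-fold. Ndc80, the microtubule-binding subunit of the NDC80 complex, lay between 7.45 and 8.0 in late KD (median 7.74), between 8.21 and 8.80 in SCR (median 8.72) and between 8.59 and 8.96 in WT (median 8.74). The arrays of KD stood apart from both, with -0.86 against SCR (adjusted p = 8e-20). At day 4 Ndc80 lay at 9.17 to 9.37 in KD, 8.75 to 8.91 in SCR and 9.26 to 9.37 in WT, so that SCR was the line apart. Its partner Nuf2 had the smallest change of the kinetochore group, -0.25 against SCR (adjusted p = 0.000147) and -0.42 against WT, with overlapping arrays. Spc24 and Spc25, which tether the complex to the centromere side, were at -0.69 and -0.57 against SCR. Spc25 was the one member that rose past 2-fold against day 0 in SCR at day 4 (1.01), day 12 (1.09) and day 15 (1.06). Cenpa, the histone that marks centromeres, was at 9.39 to 9.99 in late KD (median 9.67), 10.35 to 10.68 in SCR (median 10.57) and 10.24 to 10.64 in WT (median 10.41), with no overlap. Its change was -0.84 (SE 0.0597) against SCR and -0.71 against WT. Cenpf, a large outer kinetochore protein, was at -0.82 and -0.73, and Cenpe, a kinetochore motor, at -0.67 and -0.72.

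The 3 passenger complex genes and the 4 spindle genes were lower as well, with medians of -0.55 and -0.82 against SCR and none past 2-fold. Birc5, which encodes survivin, moved little. It ranged from 9.26 to 10.12 in late KD (median 9.78), from 9.56 to 10.39 in SCR (median 10.02) and from 10.01 to 10.44 in WT (median 10.39), and the changes were -0.29 (adjusted p = 6.76e-06) and -0.54. Part of the difference between these lies in SCR, which was under WT by 0.25. Incenp, the scaffold of the complex, was at -0.74 against SCR and the kinase gene Aurkb at -0.55. Kif11, the motor that pushes spindle poles apart, ranged from 8.10 to 8.84 in late KD (median 8.44), from 8.96 to 9.51 in SCR (median 9.46) and from 9.12 to 9.44 in WT (median 9.35). Tpx2, which nucleates spindle microtubules and activates Aurora A, ranged from 8.13 to 8.72 in late KD, from 8.92 to 9.33 in SCR and from 8.93 to 9.40 in WT. Neither gene overlapped between KD and the other lines, and their changes against SCR were -0.89 and -0.75. With the mean of probe sets Tpx2 was at -0.43. Kif2c, a microtubule depolymerase, reached -0.99 against SCR and passed 2-fold against WT (-1.04), whereas the motor gene Kif4 was at -0.43 and -0.45.

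Of the 4 genes of anaphase onset, Espl1 fell in both comparisons. It encodes separase, the protease that opens cohesin. At day 22 Espl1 read 6.99, 6.88 and 7.11 in KD, 8.40, 7.93 and 8.12 in SCR, and 8.94, 8.82 and 8.99 in WT. The 3 lines did not overlap over the 9 late arrays either, with KD lowest and WT highest. The late change was -1.06 against SCR (SE 0.0713, adjusted p = 7.11e-17) and -1.70 against WT (SE 0.0713, adjusted p = 1.47e-23). The change against WT was the largest late change of any member, while against SCR Bub1 changed most (-1.26). SCR itself lay under WT, by a difference of -0.64. Without replicate 1 of every group the change against SCR was -0.99. Cdc20, the activator of the anaphase-promoting complex, was at 10.25 to 10.79 in late KD (median 10.63), 11.15 to 11.54 in SCR (median 11.42) and 11.22 to 11.69 in WT (median 11.53), with no overlap and changes of -0.81 and -0.90. Ube2c, the ubiquitin-conjugating enzyme of that complex, was at -0.65 and -0.49. Sgo1, the guardian of centromeric cohesin that was kept apart from the members, was at -0.93 against SCR and -1.0 against WT.

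Pttg1, which encodes securin, the inhibitor of separase, differed between the lines before differentiation. At day 0 it read 11.74, 11.32 and 11.51 in KD, 11.33, 11.06 and 11.13 in SCR, and 10.22, 10.45 and 10.36 in WT. Both lines with a construct thus lay above WT, KD by 1.18 (SE 0.0785, adjusted p = 9.73e-15) and SCR by 0.83 (adjusted p = 2.46e-10). At day 22 it read 11.20, 11.01 and 11.13 in KD, 11.92, 12.00 and 11.90 in SCR, and 11.91, 11.85 and 11.91 in WT. By then SCR and WT overlapped and KD lay under both, with -0.83 against SCR and -0.78 against WT. Pttg1 rose in WT (1.55 against day 0), the one member past 2-fold there at day 22. Its change over the same days was -0.41 in KD and 0.77 in SCR. The change from day 0 to late EBs therefore differed by -1.14 between KD and SCR and by -1.54 between KD and WT, although the late difference itself was -0.79 against SCR and -0.36 against WT.

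For cytokinesis 5 of 5 genes were lower in late KD EBs than in SCR by adjusted p (median -0.68), and Ect2 fell. Ect2 activates the small GTPase RhoA at the cleavage furrow. It read 9.09, 9.04 and 9.22 in KD at day 12, 10.09, 10.33 and 10.24 in SCR, and 9.87, 9.57 and 9.89 in WT. KD lay below both lines without overlap over all late arrays, with -1.08 against SCR (SE 0.0669, adjusted p = 6.14e-18) and -0.87 against WT. At day 4 Ect2 was 1 of 7 members lower in KD than in SCR by adjusted p (23.5% of all genes), with -0.61 (adjusted p = 3.04e-05). Ect2 lay at 9.11 to 9.61 in KD then, 9.91 to 10.13 in SCR and 9.48 to 9.67 in WT, so that KD and WT overlapped, and 1 member (1.5% of all genes) was lower in KD than in WT by adjusted p. Anln encodes anillin, which organises the contractile ring, and ranged from 9.24 to 9.53 in late KD (median 9.39), from 10.04 to 10.44 in SCR (median 10.33) and from 10.16 to 10.75 in WT (median 10.48). It was at -0.95 against SCR and fell against WT (-1.11). Prc1, a crosslinker of the spindle midzone, was at -0.68 against SCR, and the motor genes Kif20a and Kif23 were at -0.63 and -0.42.

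Of the condensin and topoisomerase genes 6 of 6 were lower in late KD EBs than in SCR by adjusted p, with a median of -0.60. Ncapg, a subunit of condensin I, fell. Its arrays were 8.37, 8.31 and 8.24 in KD at day 12, 9.37, 9.37 and 9.41 in SCR, and 9.11, 8.97 and 9.07 in WT. At day 0 they had been 9.19, 9.30 and 9.25 in KD, 8.56, 8.88 and 8.73 in SCR, and 8.54, 9.04 and 8.90 in WT. Undifferentiated KD cells thus lay above the other lines, by 0.52 against SCR (adjusted p = 7.28e-06), and late KD EBs below them. The late change was -1.09 against SCR (SE 0.0471, adjusted p = 3.7e-23) and -1.05 against WT, and the change from day 0 differed by -1.62 between KD and SCR, the largest difference of that kind. Ncapd2, another condensin I subunit, parted later than the others, with -0.26 at day 12, -0.53 at day 15 and -1.16 at day 22 against SCR. Top2a, which untangles DNA, ranged from 10.78 to 11.45 in late KD (median 11.17), from 11.65 to 11.91 in SCR (median 11.78) and from 11.52 to 11.83 in WT (median 11.69). Smc2, the core condensin ATPase, ranged from 10.10 to 10.72 in late KD (median 10.50), from 10.75 to 11.17 in SCR (median 11.09) and from 10.93 to 11.05 in WT (median 10.98). Both were without overlap though their changes against SCR were -0.65 and -0.56, and Smc4 and Ncaph were at -0.53 and -0.46.

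The course within each line showed the same picture from the other side. In KD 11 members fell at day 12 against day 0 (11.5% of all genes), 18 at day 15 (12%) and 24 at day 22 (11.4%), with median changes of -0.61, -0.84 and -1.07. Nek2 (-2.25), Espl1 (-2.10) and Bub1b (-2.09) fell most. In SCR 2 members, Nek2 and Aurka, fell at day 22 and none rose, with a median of -0.17. Of all 14104 genes 790 fell there, and 22.9% passed in either direction. In WT only Pttg1 passed, upwards (15.7% of all genes in either direction), with a median of 0.03. At day 4 all lines had members above day 0 by adjusted p, namely 19 in KD (34.4% of all genes), 15 in SCR (32.1%) and 25 in WT (34.5%), of which Spc25 in SCR (1.01) and Ncapg in WT (1.02) passed 2-fold. The lower members at day 4 were 10 in KD (29.5% of all genes), 5 in SCR (24.6%) and 8 in WT (31%).

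The further probe sets of the members mostly pointed the same way, though not always by the same amount. In late KD EBs against SCR the dimmer probe set of Bub1 was at -0.43 and the one used at -1.26. For Bub3 the one used was at 0.03 and the others at -0.16 to -0.52. Of 41 probe sets not used above, 38 were lower in late KD EBs by adjusted p against SCR (39% of all genes) and 39 against WT (38%). All 41 were lower in KD at day 22 than at day 0, where 5048 of the 14104 genes were. None was higher in late KD EBs, and no gene had probe sets called in both directions.

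Mitotic genes outside the members were also mostly lower. Of 93 measured genes in 6 further lists, 75 were lower and 11 higher in late KD EBs than in SCR by adjusted p. Of all 14104 genes 5500 were lower and 5377 higher. In these lists 11 genes fell past 2-fold (4.88% of all genes) and none rose, and the median was -0.50. Against WT 18 fell (6.21% of all genes), and between SCR and WT none did. There 27 were lower (34.8% of all genes) and 30 higher (28.6%) at an unadjusted limma p under 0.05. Among 27 further kinetochore and centromere genes 5 fell against SCR, led by Cenpp (-1.17), Ska3 (-1.12) and Cenpw (-1.04). Of 20 further spindle and motor genes Kif18a (-1.31) and Kif20b (-1.11) fell. Cep55, an abscission factor (-1.26), was the only 1 of 6 cytokinesis genes to fall, and Cdca5, which encodes the cohesion factor sororin (-1.42), the only 1 of 12 cohesin and condensin genes. The 14 further genes of the anaphase-promoting complex and its partners had the median nearest to 0 of these lists, -0.12, with 8 lower and 6 higher by adjusted p, and only Fbxo5, which encodes its inhibitor EMI1, fell (-1.10). Of 14 further genes of mitotic entry Ccnf, encoding cyclin F, fell (-1.13).

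Regulators of the programme were uneven. Of 21 measured, 13 were lower and 1 higher by adjusted p in late KD EBs against SCR, where 5500 and 5377 of the 14104 genes were. Past 2-fold 1 of the 21 fell (4.88% of all genes). Mybl2 encodes B-MYB, the partner of the MuvB complex on CHR promoters, and fell by 2.69 on the log2 scale against SCR (SE 0.0937, adjusted p = 2.83e-26) and by 3.26 against WT, more than any member. Foxm1, another activator of the mitotic programme, was at -0.16 (adjusted p = 0.0132) and -0.22. The repressor gene Rbl2, which encodes p130, was at 0.81 against SCR and rose against WT (1.19). Of 7 genes of CDK inhibitors, Cdkn2b (1.57) and Cdkn1c (1.31) rose against SCR (10.1% of all genes rose), and 6 of 7 were higher by adjusted p. Against WT 3 of the 7 rose (11.2% of all genes). Cyclins and kinases of G1 and S phase showed no shared direction, with 3 of 8 lower and 3 higher by adjusted p. Of 6 proliferation markers, Hells (-1.25) and Gmnn (-1.06) fell, whereas Mki67, the gene of the Ki-67 antigen, was at -0.08 against SCR (adjusted p = 0.0924) and 0.02 against WT (adjusted p = 0.611).

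Markers of cell types differed between the lines in the same EBs, and in bulk RNA fewer cells of a type and less RNA per cell cannot be told apart. The mean log2 level of 14 genes of undifferentiated cells was 6.72 to 8.56 on the late KD arrays, 9.47 to 10.20 in SCR and 9.75 to 10.21 in WT. Of the 14, 13 fell in KD against each line (4.88% of all genes against SCR and 6.21% against WT). All 7 liver and visceral endoderm genes and all 6 mesenchyme genes rose in late KD EBs against SCR, with medians of 6.02 and 3.22. So did 5 of 7 cardiac, 3 of 4 endothelial and 3 of 3 blood genes (10.1% of all genes rose). Of 5 neural genes 4 fell against SCR. Against WT none of the 5 fell and 1 rose (11.2% of all genes). All 5 were higher than in WT by adjusted p (median 0.68), where 6051 of the 14104 genes were. Between the control lines 4 of the 5 rose in SCR against WT (median 2.54), where 490 of the 14104 genes rose. The liver list also set SCR apart from WT, since all 7 genes fell in SCR and were thus higher in WT (median -3.59 for SCR against WT). Of all 14104 genes 343 fell in that comparison. The part of cell composition in the lower mitotic genes was not tested. The levels of both over time are given as description, and a link between them was not tested. In KD EBs the 14 genes of undifferentiated cells were at 6.86 to 7.56 on day 4, 6.72 to 7.23 on day 12 and 8.53 to 8.56 on day 22, while the mean over the members on these days was 9.99, 9.25 and 8.82. In WT EBs of day 4 the same 14 genes were at 7.52 to 7.98, and the members stood at 9.97. In SCR EBs of day 4 these genes were at 9.46 to 9.54, and the members stood at 9.97 as well. On day 15 of KD the 14 genes were at 7.12 to 7.82 and the members at 9.03. At day 0 the 14 genes were at 10.87 to 11.05 in KD, 10.72 to 10.95 in SCR and 10.79 to 10.87 in WT. The members then stood at 9.93, 9.78 and 9.77.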

How the data were processed

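Gene expression was measured on an Affymetrix mouse array in 54 samples, and the deposited values hold 30939 probe sets. The deposited values are log2 intensities to which the authors had applied RMA, that is background correction, quantile normalization between arrays and a summary per probe set, which compresses differences of dim probe sets. The submitters' notes name Expression Console and Partek 6.6, and the methods name R Bioconductor packages. Values lay between 1.65 and 14.03 and were not transformed. All array columns were used.

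By the platform annotation 25596 probe sets had 1 symbol, 685 several and 4658 none. Each of the 14104 genes was represented by its brightest probe set (mean over the 54 arrays) among those with that symbol only. Groups came from the sample titles.

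Group means were fitted to all 54 arrays with limma 3.58.1 in R 4.3.3 (18 groups, eBayes), with Benjamini-Hochberg adjustment across the 30939 probe sets for every contrast. "Fell" and "rose" require an adjusted p under 0.05 together with a change of 2-fold or more, and "lower by adjusted p" drops the second condition. Shares of all genes refer to the 14104 genes. The fit was tested on simulated data. The members and the lists were chosen with earlier results of these data known, and no list was tested as a set. The named members are a fixed selection from all roles, the largest changes of each comparison and up to 3 genes of each list, and some others were named after their values were seen. Alternatives covered normalization, probe set choice, a filter on dim probe sets, the arrays in the fit, the variance model, array weights, a replicate block, the fold minimum and each array left out. The labels do not say what a replicate number shares. In 6 of 18 comparisons of 2 lines on 1 day (KD and SCR on days 0, 2 and 12, KD and WT on day 4, SCR and WT on days 0 and 22) the deviations of all 3 same-numbered pairs correlated over 0.1, and the fit was repeated with the number as a block. In 17 of the 18 groups replicate 3 lay nearer to the mean of replicates 1 and 2 than 3 independent arrays of equal spread would on average (ratio 0.416 to 0.717, where 0.866 is expected). If replicate 3 is not independent, the errors and p values given are too small. The number of arrays limits the precision.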

Additional observations from a re-analysis of the deposited data

Results flagged for a closer look

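The change from undifferentiated cells to late EBs differed between the lines for named members, by an interaction term in limma past the 2-fold minimum. Between KD and SCR the differences in log2 change were -1.62 for Ncapg, -1.5 for Bub1, -1.27 for Cenpf, -1.23 for Ttk, -1.14 for Pttg1, -1.13 for Anln, -1.08 for Cenpa and -1.03 for Cdc20. Between KD and WT they were -1.54 for Pttg1, -1.47 for Bub1, -1.47 for Ncapg, -1.29 for Ttk, -1.13 for Anln, -1.09 for Aurka, -1.05 for Kif11 and -1.0 for Cenpa. Both sets use the same KD arrays. Pttg1 and Ncapg had the largest day 0 differences between KD and WT or SCR (1.18 and 0.52), which enter these values.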

How the results depend on the processing

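The counts of members past the test depended most on the fold minimum, and otherwise the counts stayed within 1.5 times except as follows. Without a fold minimum the counts for KD against SCR were 11, 6, 17, 38, 38 and 38 in day order and 39 in late EBs, for KD against WT 13, 3, 2, 29, 39 and 39 and 39 in late EBs, and for SCR against WT 3, 5, 18, 16, 11 and 19 and 17 in late EBs. Against day 0 on day 22 they were 38 in KD, 18 lower in SCR and 28 in WT, and for the change to late EBs 38 in KD against either line. With a 1.5-fold minimum they were 0, 1, 1, 23, 31 and 31 and 29 for KD against SCR, 1, 1, 1, 14, 31 and 37 and 26 for KD against WT, 1, 0, 1, 1, 2 and 1 and 1 for SCR against WT, 34, 10 and 7 on day 22 against day 0 in KD, SCR and WT, and 32 and 32 for the change to late EBs. On day 12 of KD against SCR, quantile normalization gave 5 and median centring 6, in place of 3. On day 22 of KD against SCR median centring gave 15, the mean of probe sets 5 and array weights 4, in place of 8. Median centring also gave 28 for KD against WT on day 22 and 2 for WT on day 22 against day 0. It shifts the median of all genes in KD against WT on day 22 to -0.14, against 0.01 as deposited, and that of the members to -1.11, against -0.96, so the members lay about as far under all genes. As single arrays or replicate numbers were left out, the counts for KD against SCR ranged from 7 to 13 on day 15, from 4 to 13 on day 22 and from 4 to 9 in late EBs, and for KD against WT from 11 to 14, from 13 to 20 and from 8 to 10. They ranged from 20 to 26 in KD and from 2 to 4 in SCR on day 22 against day 0, and from 9 to 20 and from 12 to 21 for the change to late EBs. The other counts did not move. Bub3 turned to -0.037 against SCR and -0.05 against WT with median centring, and to -0.207 and -0.222 with the mean of probe sets. That mean weighs all its probe sets alike. The brightest (mean level 11.14) was at 0.034 against SCR, and the others (mean levels from 4.34 to 7.26) were at -0.164 to -0.516. Why its probe sets differ was not tested. Over 40 named values, 1169 alternatives kept direction and side of the threshold, 14 lost the call, 53 gained one and 4 reversed. Replicate numbers paired the samples in part: of 54 correlations between same-numbered deviations 32 were over 0.1 (lowest -0.40, highest 0.501), all 3 were over 0.1 in 6 of 18 comparisons of 2 lines on 1 day, and in 82 of 108 comparisons of an array with another line it correlated best with its own number. With the replicate number as a block, every count past the 2-fold test was the same, also in those 6, for example 6 for KD against SCR and 9 for KD against WT in late EBs. Every group holds each number once, so the block left every log2 change as it was and could alter only the p values. It also fits a shift common to all lines and days. The equal counts therefore do not tell how much a pairing within single days matters.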
